A study of Mus musculus with 8 samples.

Results

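The comparison described here is that of Jmjd1c knockout with wild-type germinal center B cells, sorted from mouse spleen. It takes the 2 samples titled as knockout (KO) and the 2 titled as wild type (WT) for this cell type, which are 4 of the 8 samples of the series, and all genes of their count files. All 4 samples came from C57BL/6 mice, the cells were sorted by FACS, and the RNA was taken up in Trizol. The KO group carries the genotype Jmjd1c B KO, which the study's title ties to B cells, and the WT group is wild type for the same gene. The sources used here do not give the Cre driver, the deleted exons, the immunization, the surface markers of the gate, or the age and sex of the mice. The other 4 samples are KO and WT activated B cells, which enter only the last comparison.

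Germinal centers are the sites in lymphoid follicles where B cells divide, mutate their antibody genes and are selected with help from T cells, before they leave as memory B cells or plasma cells. BCL6 holds the germinal center program in place, and sphingosine-1-phosphate receptors decide between staying in the follicle and leaving it. JMJD1C belongs to the Jumonji-domain proteins of the JMJD1 (KDM3) family, whose relatives remove methyl groups from lysine 9 of histone H3, a mark of silent chromatin.

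Jmjd1c itself (chr10:67096125-67256326, plus strand, GRCm38, ENSMUSG00000037876.17) was measured at 156 and 150.4 CPM in KO and 185 and 168 CPM in WT. Both KO samples lay below both WT samples, and the KO mean was 86.7% of the WT mean (log2 change -0.20, SE 0.044, adjusted p = 1.66e-05, edgeR quasi-likelihood test with Benjamini-Hochberg adjustment). Counts were summed over the whole gene, so a deletion of a few exons would lower them only in part, and these values check the labels in direction only. The fall of Jmjd1c was larger in the activated B cells, by a log2 difference of 0.736 (last comparison). Why the fall was smaller in germinal center B cells was not tested. Levels here and below are CPM (counts scaled to the library size, after TMM scaling). Log2 changes are log2 fold changes, KO over WT, and values before "against" are KO replicates 1 and 2. The labels do not say whether the 2 samples of a group came from separate mice, so the p-values cover the spread between these samples alone, and it may be technical.

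Per kilobase of annotated exon, Jmjd1c stood at 8.58 in KO and 9.90 in WT, its relative Kdm3a at 10.1 in KO and 9.0 in WT and Kdm3b at 17.9 in KO and 17.1 in WT (CPM per kilobase). Kdm3a was slightly higher in KO cells (log2 change 0.17, SE 0.061, adjusted p = 0.0160), and Kdm3b did not pass (log2 change 0.068, SE 0.039, adjusted p = 0.139). A gene was called where the adjusted p was under 0.05, and 50.2% of the 13350 genes tested were called in this comparison. Of 12 tested H3K9 demethylase genes, 3 were higher, 5 lower and 4 not called, with a median log2 fold change of -0.13 against -0.0044 over all tested genes. Kdm7a rose most among them (63.1 and 73 against 39.9 and 42.9 CPM, log2 change 0.72, SE 0.073) and Kdm1b fell (128 and 121 against 151 and 158 CPM, log2 change -0.32, SE 0.048). Within 5 Mb of Jmjd1c, 31 genes were tested, of which 6 were higher, 9 lower and 16 not called. Tmem26 stood out there, at 10.4 and 11.1 CPM in KO and 1.40 and 0.431 CPM in WT (log2 change 3.59, SE 0.29), next to Rhobtb1 (log2 change 1.31, SE 0.29) and Ube2d1 (log2 change 0.73, SE 0.12) among those higher. Cisd1 (log2 change -0.67, SE 0.10), Dna2 (log2 change -0.54, SE 0.061) and Cdk1 (log2 change -0.45, SE 0.055) were the lowest in that window.

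The 4 samples held 8777425 to 11414559 counts on genes, so that 1 CPM rests on 8.78 to 11.4 counts. The replicate spread was narrow, with a biological coefficient of variation of 2.26%. Mitochondrial genes took 9.20% and 9.52% of counts in KO and 5.51% and 5.27% in WT, and reads without a unique place were 9.21% and 9.23% against 6.88% and 6.99%. Markers of other cells were low but moved with the groups. The summed level of the 18 listed monocyte and macrophage genes was 140 and 154 CPM in KO against 50.8 and 48.9 CPM in WT. Of the 13 tested 11 were higher, and Vsig4 was at 0 in all 4 samples. Mpeg1, which B cells also express, made up 69 and 77.7 CPM of that in KO. Erythroid genes summed to 66.9 and 80.8 CPM against 9.69 and 11.8 CPM, with 7 of 7 tested members higher. T cell genes summed to 122 and 116 CPM against 115 and 115 CPM, but 3 of 7 tested members were higher and 0 lower (median log2 change 1.02), and Cd3e had 9 and 11 counts in KO and 0 and 0 in WT. Dendritic cell genes were higher in 3 of 4 tested, stromal genes in 2 of 3, NK cell genes in 1 of 1 and platelet genes in 0 of 1, and no neutrophil gene was abundant enough to be tested. Among those higher, Itgax is also on the atypical B cell list below and Pecam1 on the list of inhibitory receptors of B cells. The part of these shares in the differences below was not tested. With the mitochondrial and immunoglobulin genes left out, 6473 genes were called. All 4 samples held transcripts of the Y-linked Ddx3y (115 and 108 against 149 and 145 CPM) and at most 3 counts of Xist.

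Of the 13350 genes tested, 3346 (25.1%) were higher and 3352 (25.1%) lower in KO cells. The numbers were balanced but the sizes were not. Among genes called, 972 were higher and 227 lower by more than 2-fold, and 311 were higher and 25 lower by more than 4-fold. The higher genes past 2-fold took 4.22% of all counts in KO and 1.42% in WT, and the lower genes past 2-fold took 0.222% and 0.557%. The split of directions varied with level. Of genes at a mean of 1 to 10 CPM, 20.6% were higher and 9.29% lower, whereas of genes at 100 to 1000 CPM 29.9% were higher and 47.0% lower. In between, at 10 to 100 CPM, 25.7% were higher and 27.5% lower, and of the 72 genes at more than 1000 CPM 37.5% were higher and 38.9% lower. With 2 samples against 2, groups without overlap were common: both KO samples lay above both WT samples for 36.1% of all tested genes and below them for 36.6%, 72.7% in all, and each such statement below is to be read against these shares. Many calls were small: 2307 genes were called at a change of less than 1.25-fold. With a test against a 1.5-fold change in place of the test against none, 1247 genes were called, 966 higher and 281 lower.

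**Figure D1:**
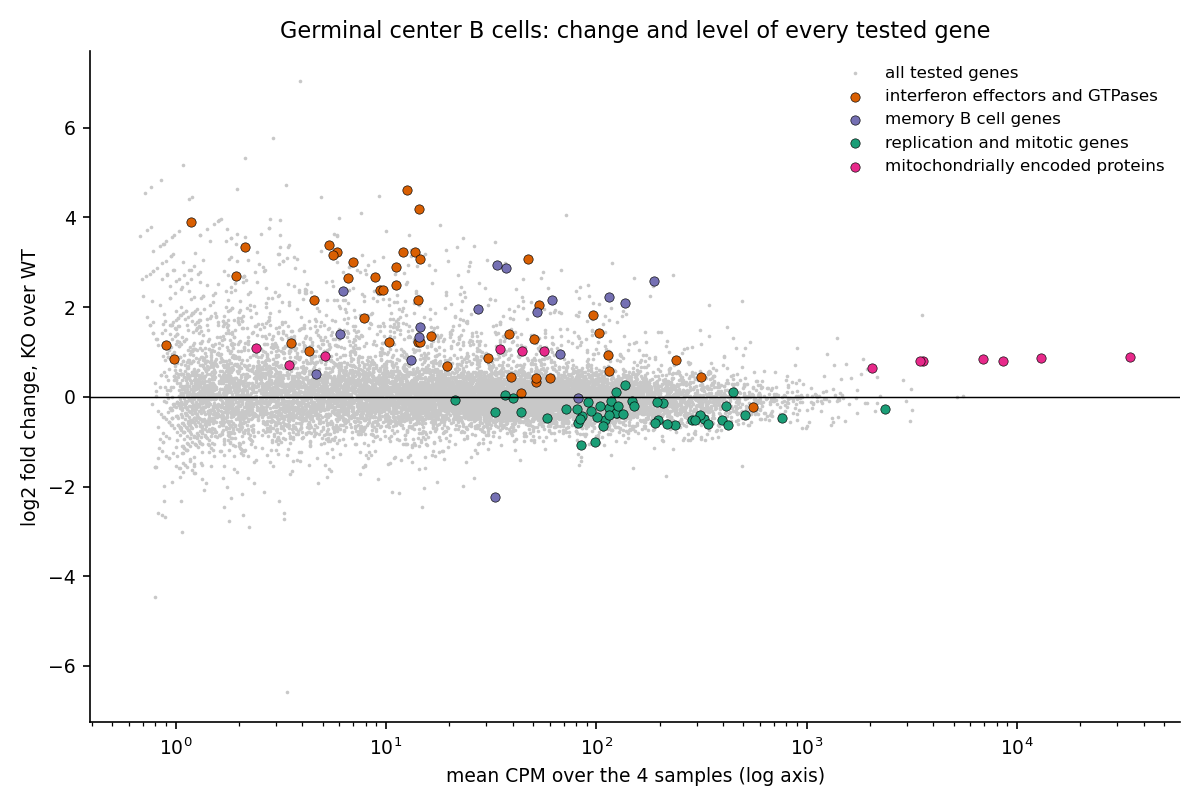
Each point is a tested gene, placed by its mean level over the 4 samples (CPM, log axis) and its log2 fold change, KO over WT. Interferon effectors and GTPases (orange) and memory B cell genes (purple) lie mostly above 0, mitochondrially encoded proteins (pink) above 0 at the highest levels, and replication and mitotic genes (green) mostly below 0.

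The genes with the largest differences in CPM, rather than in fold, were of other kinds. They are ranked here among genes annotated as protein coding, which leaves out the immunoglobulin constant genes described further down. Of those, Ighm was higher by 3941 CPM in KO and Ighg1 fell by 631 CPM. The rise of Ighm was smaller than that of mt-Co1 below and larger than that of H2-K1. The fall of Ighg1 was smaller than that of Actb and larger than that of Cfl1. Mitochondrially encoded transcripts led the protein-coding genes higher in KO, mt-Co1 with 43623 and 45986 CPM in KO and 24917 and 23612 CPM in WT. Among the 15 highest were also the class I histocompatibility gene H2-K1 (1989 and 1970 against 807 and 799.9 CPM), the inhibitory receptor gene Cd22 (2334 and 2342 against 1513 and 1518 CPM) and Macf1 (1688 and 1663 against 1089 and 970.2 CPM), a linker of actin and microtubules. For each of them both KO samples lay above both WT samples. Cytoskeleton, RNA-binding and chaperone genes were among the 15 lowest. Actb, cytoplasmic actin, was at 2518 and 2540 CPM in KO and 3696 and 3599 CPM in WT (log2 change -0.53, SE 0.028). Cfl1, the actin-severing cofilin, was at 1031 and 1010 against 1582 and 1590 CPM, though 16.5% of its exon bases lie under exons of the other strand and the counting's strand setting is not given in the sources used here. Pfn1, profilin, was at 1092 and 1115 against 1522 and 1563 CPM, Hnrnpa2b1 at 1222 and 1245 against 1805 and 1804 CPM, the chromatin protein gene Hmgb2 at 719.8 and 729.9 against 1161 and 1173 CPM, and Ucp2, a mitochondrial carrier, at 788 and 777 against 1213 and 1244 CPM.

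The label of the cells was checked against genes that mark germinal center B cells and the B cells outside them. Both groups expressed Fas, Bcl6 and S1pr2, so both carried the label's defining transcripts. Genes that such cells turn down were nevertheless higher in KO. Of 15 tested genes used to gate such cells, 8 were higher, 6 lower and 1 not called in KO.
The death receptor gene Fas was at 107 and 107 CPM in KO and 122 and 128 CPM in WT (log2 change -0.22, SE 0.052). Fas was thus lower in both KO samples than in either WT sample, by a small margin. Efnb1, an ephrin ligand of germinal center B cells, was at 46.3 and 44.8 CPM in KO and 119 and 128 CPM in WT (log2 change -1.44, SE 0.063). Nt5e, which encodes the ectoenzyme CD73, was at 11.1 and 12.1 CPM in KO and 53.2 and 55.7 CPM in WT (log2 change -2.23, SE 0.11). Cd38, an ectoenzyme that mouse germinal center B cells turn down, was at 81.6 and 82.4 CPM in KO and 22.1 and 22.2 CPM in WT (log2 change 1.89, SE 0.081). Cmah, which makes the sialic acid whose loss exposes the GL7 epitope, was at 206 and 207 CPM in KO and 57 and 60.5 CPM in WT (log2 change 1.81, SE 0.052). Ighd, the constant gene of IgD, was at 552 and 558 CPM in KO and 135 and 134 CPM in WT (log2 change 2.05, SE 0.039). The groups did not overlap for any of the 15 genes, against 72.7% of all tested genes without overlap. The pan-B gene Ptprc (0.14) was higher by less, and Ms4a1, which encodes CD20, did not pass (log2 change 0.050, SE 0.029, adjusted p = 0.149). In bulk samples a larger share of cells of another B cell stage and more RNA of these genes per cell cannot be told apart, which holds for every group of genes below.

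**Figure D2:**
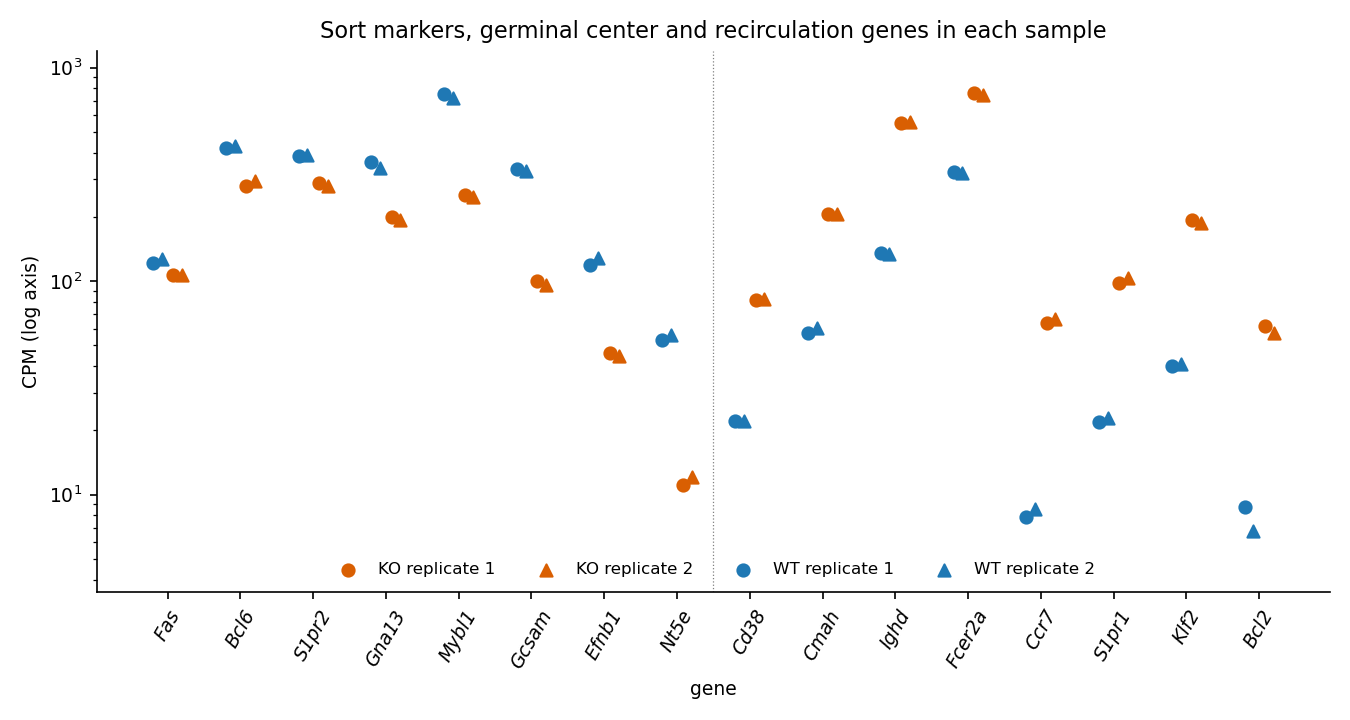
Levels (CPM, log axis) of 16 genes in each of the 4 samples, KO in orange and WT in blue, with replicate 1 as a circle and replicate 2 as a triangle. Genes of the germinal center program on the left are lower in both KO samples, and genes of B cells outside germinal centers on the right are higher, with replicates close together and no overlap between the groups.

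Transcription factors of the germinal center program were mostly lower. Of 25 tested, 17 fell, 5 rose and 3 were not called, with a median log2 fold change of -0.24. Bcl6 was at 278 and 294 CPM in KO and 420 and 429 CPM in WT (log2 change -0.57, SE 0.036, adjusted p = 8.01e-54), its activator Mef2b at 255 and 255 against 413 and 406 CPM (log2 change -0.68, SE 0.037). Bach2, a repressor of plasma cell fate, was at 209 and 211 against 385 and 368 CPM (log2 change -0.84, SE 0.038). Mybl1, a MYB-family factor of dividing germinal center B cells, had the largest fall of the list, at 253 and 249 CPM in KO and 749.7 and 718 CPM in WT (log2 change -1.55, SE 0.036), and Pou2af1, the octamer coactivator OCA-B, was at 774 and 734 against 1222 and 1230 CPM (log2 change -0.70, SE 0.031). For each of these 5 genes both KO samples were below both WT samples, as they were for 36.6% of all tested genes. Exceptions ran the other way: Pax5 (0.36), which keeps B cell identity, and Foxp1 (0.66), which germinal center B cells turn down, were higher.

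The factors of quiescence and recirculation moved in the opposite direction, 12 of 14 tested higher, 1 lower and 1 not called, with a median of 1.51. Klf2, which drives the genes of lymphocyte circulation, was at 192 and 187 CPM in KO and 39.9 and 40.9 CPM in WT (log2 change 2.23, SE 0.058). Klf3 (49.3 and 53.1 against 9.99 and 12.4 CPM), Klf4 (20.8 and 21.8 against 3.40 and 2.93 CPM), Runx3 (53.1 and 43.8 against 18.5 and 17.1 CPM) and Zeb2 (24 and 25 against 8.39 and 8.19 CPM) were higher as well, each with both KO samples above both WT samples. Tbx21, which encodes T-bet, did not pass (12.4 and 9.04 against 8.89 and 8.28 CPM, log2 change 0.32, SE 0.17, adjusted p = 0.104).

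Plasma cell factors rose in 5 of 7 and fell in 2 of 7, with a median of 0.69. Irf4, which at high levels drives plasma cell fate, was at 115 and 119.6 CPM in KO and 46.7 and 44.6 CPM in WT (log2 change 1.37, SE 0.063). Prdm1, which encodes Blimp-1, was at 18.8 and 15.2 CPM in KO and 5.19 and 5.26 CPM in WT (log2 change 1.69, SE 0.17). The groups did not overlap in either gene. Zbtb20 (72.9 and 67.6 against 136 and 129.5 CPM, log2 change -0.92, SE 0.056) and the elongation factor gene Ell2 (log2 change -0.31, SE 0.072), both active in plasma cells, fell. Of 12 plasma cell markers tested, 8 were higher, 2 lower and 2 not called: Sdc1, the surface marker CD138, was at 11.6 and 9.84 against 2.0 and 2.93 CPM, while Jchain was at 465 and 475 against 467 and 478 CPM and did not pass (log2 change -0.010, SE 0.034, adjusted p = 0.837).

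Immediate early genes, which respond to receptor signals and also to handling of cells, were higher in 9 of 11 tested and lower in 0, with a median of 1.07. Jun was at 152 and 151 CPM in KO and 32.7 and 31.2 CPM in WT (log2 change 2.25, SE 0.064). Fosb was at 194 and 188 against 58.7 and 60.6 CPM (log2 change 1.68, SE 0.053). Junb was at 365 and 345 against 171 and 167 CPM (log2 change 1.07, SE 0.039). Nr4a1 was at 51.6 and 51.8 against 18 and 22.3 CPM and Myc, a transcription factor gene switched on in positively selected cells, at 119 and 112 against 63.4 and 68.3 CPM (log2 change 0.80, SE 0.058). Every KO sample exceeded every WT sample for these 5 genes, as for 36.1% of all tested genes. How long the sort took is not given in the sources used here.

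Genes that hold B cells in the germinal center were partly lower, and genes for leaving it were higher. Of 9 confinement genes 6 fell and 3 rose (median -0.27). S1pr2, the receptor that confines the cells, was at 289.5 and 279 CPM in KO and 387 and 390.1 CPM in WT (log2 change -0.45, SE 0.037), its G protein gene Gna13 at 199.9 and 193 CPM in KO and 360.2 and 339 CPM in WT (log2 change -0.83, SE 0.039). Rgs13, which dampens chemokine signals, was at 82.6 and 83.1 CPM in KO and 160.1 and 168 CPM in WT (log2 change -0.99, SE 0.052). These 3 were lower in both KO samples. Arhgef1, the exchange factor downstream of Gna13, rose (1874 and 1843 against 1371 and 1389 CPM, log2 change 0.43, SE 0.029).

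Of 6 tested chemoattractant receptors 5 rose and 1 fell (median 1.70). The exception was Cxcr4, the receptor of the dark zone, at 157 and 166 CPM in KO and 232 and 242 CPM in WT (log2 change -0.55, SE 0.042). Ccr7, which guides cells to the T cell zone, was at 64 and 66.8 CPM in KO and 7.89 and 8.54 CPM in WT (log2 change 2.99, SE 0.11). Ccr6, a receptor of memory B cells and their precursors, was at 70.2 and 60.5 CPM in KO and 10.4 and 7.67 CPM in WT (log2 change 2.87, SE 0.11). Gpr183 (EBI2), which draws cells to the outer follicle, was at 43.7 and 42.9 CPM in KO and 12 and 10.5 CPM in WT (log2 change 1.95, SE 0.11). All 3 were low in both WT samples and several times as high in both KO samples. Cxcr5, the receptor for follicle entry, rose less (296 and 293 against 197 and 205 CPM, log2 change 0.55, SE 0.039).

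Among 15 genes of exit and adhesion 10 rose, 1 fell and 4 were not called (median 0.95). S1pr1, the egress receptor, was at 98 and 103 CPM in KO and 21.9 and 22.9 CPM in WT (log2 change 2.17, SE 0.076). The integrin genes Itgb7 (93.9 and 103 against 27.6 and 26 CPM) and Itga4 (193 and 196 against 77 and 76.1 CPM), which together make the receptor for mucosal vessels, were higher, and so was Cd69 (97.1 and 101 against 33.7 and 36 CPM), whose protein opposes S1PR1. S1pr1 and Cd69 therefore rose together. In S1pr1, Itgb7, Itga4 and Cd69 the groups did not overlap.

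Genes that repair and process mutated antibody genes were lower in part. Over the 42 tested genes of hypermutation and class switching 3 rose, 18 fell and 21 were not called. Of all tested genes 50.2% were called, 25.1% higher and 25.1% lower, so these genes were called about as often as all genes. Of 10 genes of uracil and mismatch repair 5 fell and 0 rose: Ung, which removes uracils from DNA, was at 34.4 and 35.7 against 47.4 and 51 CPM (log2 change -0.49, SE 0.083). Polh, the error-prone polymerase that mutates A and T, was at 105 and 115 CPM in KO and 187 and 178 CPM in WT (log2 change -0.73, SE 0.047), one of 3 lower and 1 higher among 7 translesion polymerases. Of 18 end-joining genes 7 fell, 0 rose and 11 were not called. H2ax (-0.73), Lig4 (-0.81) and Rif1 (-0.46) were lowest in adjusted p there.

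Receptors for help from T cells were higher more often than lower, 9 of 15 against 3 (median 0.52), and so were ligands, 11 of 15 against 1 (median 0.45). Cd40 was at 108 and 113 CPM in KO and 69.9 and 76 CPM in WT (log2 change 0.59, SE 0.058). Il9r, the receptor of interleukin 9, was at 136 and 147 CPM in KO and 26.1 and 25.6 CPM in WT (log2 change 2.45, SE 0.068). Il9r had the largest rise of the receptors, followed by Il10ra (174 and 178 against 53.6 and 52.9 CPM, log2 change 1.72, SE 0.055). Il21r (286 and 278 against 316 and 322 CPM, log2 change -0.18, SE 0.037), which transmits the main cytokine of follicular helper T cells, and Tnfrsf13c, the BAFF receptor gene (307 and 307 against 411 and 406 CPM, log2 change -0.41, SE 0.036), fell. Among ligands, Cd274 (PD-L1; 32.9 and 33.2 against 8.69 and 10.5 CPM) and Pdcd1lg2 (PD-L2; 8.93 and 8.59 against 2.60 and 3.97 CPM) rose, as did Icosl (194 and 192 against 127 and 132 CPM). Cd80, a costimulatory ligand, was at 6.96 and 4.07 against 3.60 and 4.05 CPM and did not pass (log2 change 0.52, SE 0.24, adjusted p = 0.0649).

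Of 11 JAK and STAT genes 7 rose, 3 fell and 1 was not called. Stat4 had the largest change, at 18.8 and 18 CPM in KO and 4.79 and 3.71 CPM in WT (log2 change 2.12, SE 0.18). Stat3 was slightly lower, at 152 and 157 CPM in KO and 164 and 171 CPM in WT (log2 change -0.12, SE 0.045, adjusted p = 0.0171), a change of less than 1.25-fold. Among the inhibitors, 5 rose and 4 fell of 12, Socs3 (14.7 and 13.6 against 4.89 and 6.04 CPM, log2 change 1.36, SE 0.18) and Usp18 (13 and 14.8 against 2.0 and 1.90 CPM, log2 change 2.83, SE 0.22) upward.

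The genes that respond to interferon rose as a group. Type I interferons bind IFNAR1 and IFNAR2, and the signal reaches a complex of STAT and IRF factors, which binds the interferon-stimulated response element (ISRE) in the promoters of antiviral genes. The letters GAAANNGAAA, on either strand, were searched as the ISRE in the 300 bases from 250 before to 50 after each start site, from RefSeq (GRCm38.p6). They were present for 25 of the 36 interferon effector and GTPase genes with an entry (69.4%; 47 such genes were tested), against 3.83% of the 8741 tested protein-coding genes with an entry. Of genes called higher by more than 2-fold 11% held them, and of genes called lower by more than 2-fold 2.29%. The stretches below, each 5′ to 3′ on the gene's strand, are from 4 effector genes whose matches, in capitals, stand apart (Ifit3) or overlap (the other 3): Ifit3 (chr19:34583340-34583449, plus strand), Isg15 (chr4:156200831-156200940, minus strand), Irgm1 (chr11:48871421-48871530, minus strand) and Oas1a (chr5:120907526-120907635, minus strand). Mx1, Oas2, Usp18 and Irf7 were looked up as well and gave no match, for want of either an entry or the letters. A match is a description of the letters only.
Ifit3: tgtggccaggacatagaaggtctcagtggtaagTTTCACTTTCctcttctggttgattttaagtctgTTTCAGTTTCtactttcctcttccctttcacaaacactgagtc
Isg15: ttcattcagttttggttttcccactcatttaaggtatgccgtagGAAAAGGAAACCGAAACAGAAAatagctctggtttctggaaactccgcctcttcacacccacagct
Irgm1: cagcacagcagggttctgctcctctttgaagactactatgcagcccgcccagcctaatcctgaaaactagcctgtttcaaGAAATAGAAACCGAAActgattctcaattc
Oas1a: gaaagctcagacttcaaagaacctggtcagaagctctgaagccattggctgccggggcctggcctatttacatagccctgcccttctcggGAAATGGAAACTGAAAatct

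Antiviral effectors were higher in 32 of 35 tested of 39 listed, lower in 1 and not called in 2, with a median log2 fold change of 1.83. Mx1, a GTPase gene, was at 25 and 23.3 CPM in KO and 1.10 and 0.862 CPM in WT (log2 change 4.62, SE 0.22). Oas2, an oligoadenylate synthetase, was at 28.9 and 25.4 CPM in KO and 1.70 and 1.29 CPM in WT (log2 change 4.18, SE 0.20). Both were near 1 CPM in WT and more than 20 CPM in KO. Of the genes whose promoters are printed, Ifit3, which binds viral RNA with its relatives, was at 12.9 and 11.9 CPM in KO and 2.0 and 1.12 CPM in WT (log2 change 3.01, SE 0.24). Oas1a was at 26.3 and 23.3 CPM in KO and 2.40 and 2.85 CPM in WT (log2 change 3.23, SE 0.18). Isg15, a ubiquitin-like modifier, was at 6.61 and 3.28 CPM in KO and 1.90 and 2.33 CPM in WT (log2 change 1.21, SE 0.29). Isg15 had the widest spread of these between the KO samples, and its groups still did not overlap. Higher-expressed effectors also rose: Ifi213, a DNA-binding PYHIN protein gene, was at 86.7 and 82.1 against 10.4 and 9.74 CPM (log2 change 3.07, SE 0.10). Trim30a was at 147 and 155 against 43.9 and 41.2 CPM (log2 change 1.83, SE 0.060). Ifi27 was at 85.3 and 86.1 against 20.1 and 21.3 CPM (log2 change 2.05, SE 0.081). The exception was Samhd1, which depletes nucleotides, at 502 and 516 against 596 and 597 CPM (log2 change -0.23, SE 0.033), chosen for mention after its value was seen.

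The guanylate-binding and immunity-related GTPases, which respond to both interferon types, were higher in 11 of 12 tested, with a median of 1.59. Irgm1 was at 22.2 and 21.4 CPM in KO and 2.20 and 2.41 CPM in WT (log2 change 3.23, SE 0.19). Gbp9 was at 148 and 150.1 CPM in KO and 55.5 and 55.7 CPM in WT (log2 change 1.42, SE 0.057). Gbp4 was at 69.5 and 73.7 CPM in KO and 27.1 and 31.6 CPM in WT (log2 change 1.28, SE 0.078). Reads of the Gbp, Slfn, Oas and Ifi200 families, which hold near-identical copies, may be split between copies, so values of single members are uncertain.

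The parts of the pathway upstream of these targets had smaller median changes. Of the ligands, 0 of 8 listed genes were abundant enough to be tested, and 6 had 0 counts in all 4 samples. Of 6 receptor genes 5 rose and 1 was not called (median 0.91). Ifnar1 was at 79.8 and 84.5 CPM in KO and 41.6 and 44.7 CPM in WT (log2 change 0.93, SE 0.069). Ifnar2 was at 24.8 and 25.4 CPM in KO and 10.3 and 9.05 CPM in WT (log2 change 1.38, SE 0.13). The groups did not overlap for either. Of the 7 transcription factors 5 rose (median 0.70): Irf7, the amplifier of the response, was at 87.5 and 88.3 CPM in KO and 32.1 and 37.6 CPM in WT (log2 change 1.33, SE 0.072). Irf9 was at 161 and 165 CPM in KO and 64.9 and 72.2 CPM in WT (log2 change 1.25, SE 0.053). Stat2 was at 257 and 245 against 153 and 155 CPM (log2 change 0.70, SE 0.042). Irf3, which is present before infection, did not pass (log2 change 0.072, SE 0.042, adjusted p = 0.142).

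Nucleic acid sensors and their adaptors were higher in 12 of 15 tested and lower in 0 (median 0.70). Tlr7, the endosomal sensor of single-stranded RNA, was at 46.7 and 49 CPM in KO and 4.20 and 5.09 CPM in WT (log2 change 3.35, SE 0.13). Ddx58, which encodes RIG-I, was at 93.5 and 93.9 CPM in KO and 15.1 and 14.7 CPM in WT (log2 change 2.65, SE 0.085). Sting1 was at 83.6 and 80.3 against 39.8 and 42.3 CPM (log2 change 1.0, SE 0.070). Tlr7 was low in both WT samples, while Tlr9, the DNA sensor, was present in both groups and rose less (61 and 61.5 against 51.4 and 43.4 CPM, log2 change 0.38, SE 0.073). Cgas was near 1 CPM and did not pass (log2 change -0.23, SE 0.44, adjusted p = 0.697). Negative regulators were higher in 5 of 7, Usp18 at 13 and 14.8 CPM in KO and 2.0 and 1.90 CPM in WT. Lgals9 was at 39 and 39.8 CPM in KO and 9.19 and 6.47 CPM in WT. Monocyte and macrophage markers, several of which respond to interferon in their own cells, moved with the same groups (11 of 13 tested higher; Lyz2 1.97 and 4.75 against 0.400 and 0.172 CPM, C1qa 2.09 and 1.81 against 0.0999 and 0.172 CPM), and their part in these rises was not tested.

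**Figure D3:**
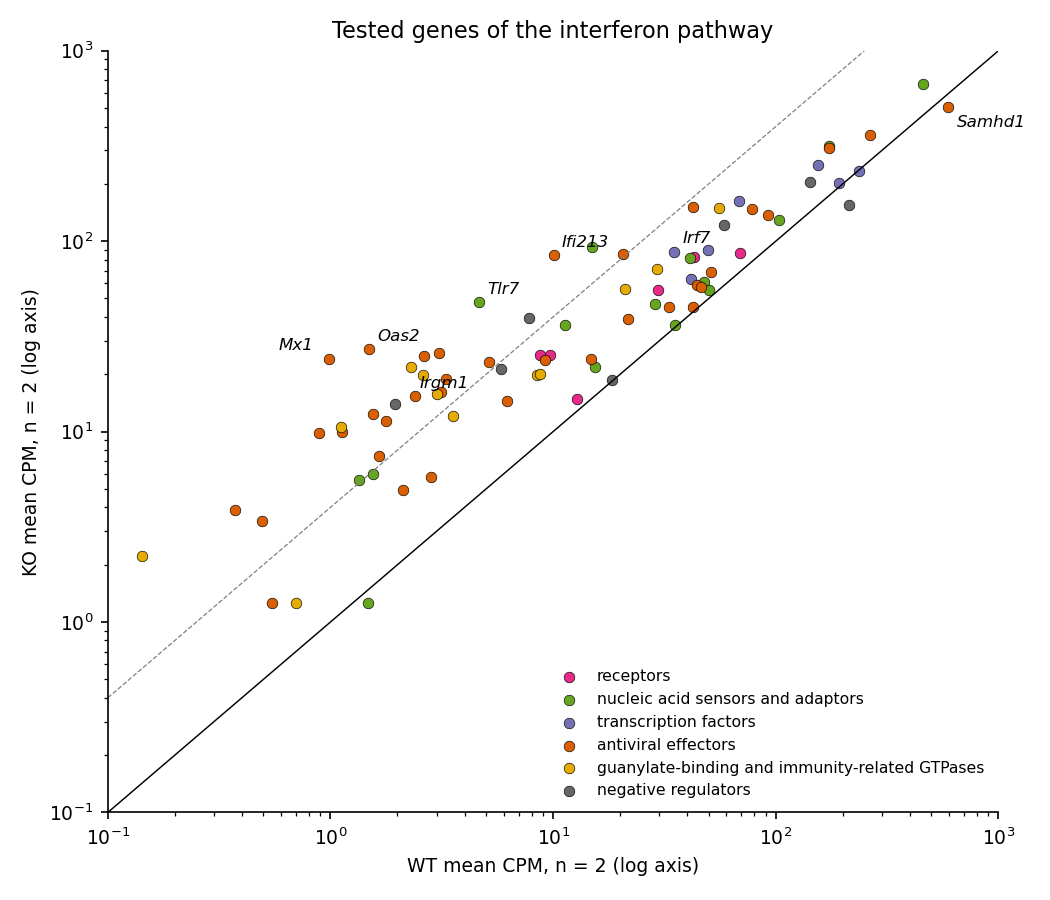
Mean level in WT (horizontal, CPM, log axis) against mean level in KO (vertical, CPM, log axis) for the tested interferon pathway genes, coloured by role. The solid line marks equal levels and the dashed line a 4-fold higher KO level: effectors and GTPases lie on both sides of the dashed line, while receptors and most transcription factors lie between the lines.

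Antigen presentation genes were mostly higher. Of 15 class I genes 11 rose, 1 fell and 3 were not called (median 0.51). H2-K1 was at 1989 and 1970 CPM in KO and 807 and 799.9 CPM in WT (log2 change 1.30, SE 0.030). B2m, the light chain of class I, was at 623 and 633 CPM in KO and 289.7 and 304 CPM in WT (log2 change 1.08, SE 0.035). Nlrc5, the class I transactivator, was at 119 and 123 CPM in KO and 58.9 and 58.5 CPM in WT (log2 change 1.04, SE 0.059). The peptide transporter gene Tap1 (503 and 495 against 301 and 311 CPM) rose as well. H2-K1, H2-D1 and H2-Q4 are similar in sequence, and their reads may be split between them. Of 12 class II genes 8 rose, 1 fell and 3 were not called, with small changes: H2-Aa was at 1622 and 1682 against 1250 and 1248 CPM (log2 change 0.40, SE 0.030). H2-Ab1 was at 2263 and 2264 against 2221 and 2217 CPM (log2 change 0.028, SE 0.028, adjusted p = 0.424), which did not pass. The widest class II rises were in the protease gene Ctss (217 and 214 against 119 and 129 CPM, log2 change 0.80, SE 0.044) and in H2-Oa (130.1 and 135 against 89.7 and 90.4 CPM, log2 change 0.56, SE 0.053), a brake on peptide loading.

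The proteasome genes were lower. Of 20 constitutive subunit genes 19 fell and 1 was not called (median -0.29), with Psma7 at 122 and 127 CPM in KO and 168 and 165 CPM in WT (log2 change -0.42, SE 0.047). Psmb5, a catalytic subunit, was at 35.6 and 41.6 against 48 and 53.8 CPM (log2 change -0.40, SE 0.080). Of the 5 immunoproteasome genes, which interferon induces, 1 rose and 1 fell: Psmb8 was lower (407 and 406 against 465 and 473 CPM, log2 change -0.21, SE 0.035) and Psmb9 did not pass (log2 change 0.082, SE 0.043, adjusted p = 0.102).

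Genes that define other mature B cell states were higher across lists. In the memory list, 14 of 17 genes rose and 1 fell (median 1.89). In the naive follicular list, 16 of 19 rose and 0 fell (median 0.64). Marginal zone genes rose in 11 of 13 and fell in 1 (median 1.09), and B1 cell genes rose in 7 of 8 (median 1.33). Atypical B cell genes rose in 11 of 13, with 0 lower (median 1.35). The lists share members, Ighd, Ccr7 and Bcl2 among them.

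Cd55, a complement regulator, was at 223 and 218 CPM in KO and 49 and 54.3 CPM in WT (log2 change 2.09, SE 0.053). Bcl2, the survival gene that germinal center B cells turn off, was at 61.8 and 57.2 CPM in KO and 8.79 and 6.73 CPM in WT (log2 change 2.95, SE 0.11). Both KO samples were above both WT samples in each. Among memory genes only Nt5e was called lower.

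Of the marginal zone genes, Plac8 was at 138 and 134 CPM in KO and 7.79 and 8.45 CPM in WT (log2 change 4.06, SE 0.088). Cd1d1, which presents lipids, was at 21.2 and 24 CPM in KO and 2.50 and 3.28 CPM in WT (log2 change 2.95, SE 0.18). Notch2, whose signal makes marginal zone B cells, was at 211 and 213 CPM in KO and 58.3 and 54.2 CPM in WT (log2 change 1.92, SE 0.052). Dtx1, a Notch target, did not pass (172 and 163 against 173 and 165 CPM, log2 change -0.010, SE 0.044, adjusted p = 0.869). Bhlhe41, a factor of B1 cells, was at 41.5 and 38 CPM in KO and 3.90 and 3.97 CPM in WT (log2 change 3.33, SE 0.14), with 19.0% of its exon length under exons of the opposite strand. Of the atypical B cell genes, Fcrl5 was at 43.7 and 41.6 CPM in KO and 4.0 and 3.36 CPM in WT (log2 change 3.54, SE 0.14). Itgax, which encodes CD11c, was at 4.87 and 2.49 CPM in KO and 0.499 and 0.948 CPM in WT (log2 change 2.29, SE 0.40). It is also on the list of dendritic cell markers given above, and which cells its transcripts came from was not tested.

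Of the naive follicular genes, Fcer2a, the low-affinity IgE receptor, was at 759 and 742 CPM in KO and 323 and 321 CPM in WT (log2 change 1.22, SE 0.034). Gimap4 was at 248 and 249 against 89.5 and 92.6 CPM (log2 change 1.45, SE 0.045). Fcmr, the IgM receptor, was at 279.7 and 268 against 175 and 178 CPM (log2 change 0.64, SE 0.040). All 3 were well expressed in WT and higher in both KO samples.

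Inhibitory receptors, which recruit phosphatases to the B cell receptor, were higher in 12 of 13 tested and lower in 0 (median 1.10). Cd72 was at 628 and 645 CPM in KO and 249.9 and 265 CPM in WT (log2 change 1.31, SE 0.035). Pirb was at 37.1 and 38.2 CPM in KO and 7.59 and 9.31 CPM in WT (log2 change 2.15, SE 0.12). Fcgr2b was at 287 and 293 CPM in KO and 181 and 174 CPM in WT (log2 change 0.71, SE 0.040). Siglecg was at 924 and 937 against 664 and 694 CPM (log2 change 0.46, SE 0.032). Of 12 phosphatase and ubiquitin ligase genes 8 rose and 2 fell, among them Ptpn22, a phosphatase that restrains antigen receptor signals, at 58.1 and 62.4 CPM in KO and 4.99 and 5.95 CPM in WT (log2 change 3.45, SE 0.12). The B cell receptor and its kinases changed less: 12 of 25 rose, 5 fell and 8 were not called, with Syk at 1395 and 1420 against 1032 and 993 CPM (log2 change 0.48, SE 0.030). Blk was at 412 and 408 against 268 and 283 CPM (log2 change 0.57, SE 0.036) and the adaptor gene Grb2 at 327 and 327 against 467 and 469 CPM (log2 change -0.52, SE 0.035).

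Of 18 tested Toll-like receptor genes and their signaling partners 12 rose, 1 fell and 5 were not called (median 0.38). Beside Tlr7, the brake gene Irak3 (14.7 and 20.8 against 4.59 and 3.71 CPM, log2 change 2.11, SE 0.18) and Tlr1 (183 and 169.9 against 129 and 129 CPM, log2 change 0.45, SE 0.046) rose.

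Among anti-apoptotic genes 4 of 10 rose and 2 fell, and Bcl2 and Birc3 (187 and 198 against 114 and 122 CPM, log2 change 0.70, SE 0.046) led the rises. Mcl1, the survival gene on which germinal center B cells rely, was slightly lower (539.7 and 530 against 591 and 589 CPM, log2 change -0.14, SE 0.033). Of 14 pro-apoptotic genes 8 fell and 3 rose (median -0.21), Bak1 (69.9 and 72.2 against 96.4 and 90.7 CPM, log2 change -0.39, SE 0.061) downward.

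Cell division genes were lower, by modest amounts. All 13 mitotic kinase and cyclin genes on the list fell (median -0.38; range from -0.66 for Ccnb2 to -0.14 for Foxm1). Ccna2 was at 153 and 151 CPM in KO and 230.1 and 223 CPM in WT (log2 change -0.58, SE 0.043). Top2a was at 612 and 661 against 895 and 874 CPM (log2 change -0.47, SE 0.032). Mki67 was at 2120 and 2140 against 2628 and 2504 CPM (log2 change -0.27, SE 0.028). Of 17 genes that license and open origins 11 fell and 0 rose (median -0.33), and of 18 polymerase and fork genes 15 fell and 2 rose (median -0.37). Mcm6, a subunit of the replicative helicase, was at 343 and 322 CPM in KO and 518 and 513 CPM in WT (log2 change -0.63, SE 0.035). Mcm5 was at 446 and 429.7 CPM in KO and 574 and 577 CPM in WT (log2 change -0.39, SE 0.034). Pola1, the primase-associated polymerase, was at 53 and 54.9 CPM in KO and 114 and 115 CPM in WT (log2 change -1.08, SE 0.062). Both KO samples were lower in each, and Pola1 fell by more than 2-fold.

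E2F factors switch on replication genes at the start of S phase. Their site, searched as TTTNNCGC on either strand in the same RefSeq windows, was present for 13 of the 27 replication genes with an entry (48.1%), against 10.1% of tested protein-coding genes. Of protein-coding genes called lower by more than 2-fold 5.34% held the E2F site, and of those called higher by more than 2-fold 5.86%. The CCAAT box was present for 9 of 10 mitotic genes with an entry and for 43.7% of tested protein-coding genes. The stretches of Mcm6 (chr1:128359726-128359835, minus strand, GRCm38.p6) and Mcm5 (chr8:75109307-75109416, plus strand) are shown because both genes are members whose matches, in capitals, overlap on the 2 strands.
Mcm6: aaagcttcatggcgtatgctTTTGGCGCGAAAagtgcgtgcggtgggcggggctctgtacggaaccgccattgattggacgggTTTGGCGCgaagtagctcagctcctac
Mcm5: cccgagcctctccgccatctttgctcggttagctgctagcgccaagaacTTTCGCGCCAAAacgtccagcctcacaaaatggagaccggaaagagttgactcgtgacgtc

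The regulators of the cycle were mixed. Of 9 D and E cyclin genes and partners 5 fell and 2 rose: Ccnd3, the D cyclin of dark zone cells, was at 226 and 213 CPM in KO and 409 and 405 CPM in WT (log2 change -0.89, SE 0.038) while Ccnd2 was at 46.7 and 46.5 CPM in KO and 22.6 and 21.6 CPM in WT (log2 change 1.08, SE 0.094). The 2 D cyclins thus moved in opposite directions. Of 10 inhibitors 3 rose and 3 fell, Cdkn1b, which encodes p27, upward (72.8 and 70.8 against 33.1 and 36 CPM, log2 change 1.05, SE 0.075) and Cdkn2c downward (42.9 and 42.7 against 68.4 and 63 CPM, log2 change -0.62, SE 0.074). The counts for the inhibitors are close to the background.

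Biosynthesis genes were lower in part. Of 15 glycolytic genes 10 fell, 3 rose and 2 were not called (median -0.31), Gapdh at 1053 and 1103 CPM in KO and 1588 and 1582 CPM in WT (log2 change -0.56, SE 0.030). Ldha was at 399.5 and 396 against 487 and 496 CPM (log2 change -0.31, SE 0.035). Of 18 cholesterol genes 11 fell and 0 rose (median -0.28), Hmgcs1 at 66.7 and 63.5 CPM in KO and 111 and 99.4 CPM in WT (log2 change -0.69, SE 0.060). Of 12 purine and pyrimidine genes 8 fell and 2 rose, and of 9 serine and folate genes 5 fell and 0 rose, Mthfd2 at 60.9 and 59.9 against 82.2 and 83 CPM (log2 change -0.45, SE 0.065). Fatty acid genes (5 higher and 3 lower of 15), fatty acid oxidation genes (2 and 4 of 13) and mTORC1 genes (3 and 2 of 11) were called about as often as all tested genes or less. Within them, Fads2, a desaturase, fell (6.38 and 8.25 against 27.2 and 27.9 CPM, log2 change -1.91, SE 0.14), Scd1 rose (433 and 454 against 309 and 282 CPM, log2 change 0.59, SE 0.036) and Sesn1, an inhibitor of mTORC1, rose (119 and 119 against 50.2 and 51.5 CPM, log2 change 1.22, SE 0.061). Of 16 autophagy and lysosome genes 7 rose and 0 fell, with the proteases Ctsb (93.6 and 98.6 against 61.9 and 55.8 CPM) and Ctss among them. Of 17 transporters 6 rose and 7 fell: the transferrin receptor gene Tfrc was at 94.2 and 92.9 against 119 and 125 CPM (log2 change -0.38, SE 0.054) and the glucose transporter gene Slc2a1 at 47.9 and 49.7 against 34.7 and 31.5 CPM (log2 change 0.57, SE 0.084).

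Readers of silent chromatin were mostly lower, and its writers were mixed. Of 10 readers and partners of H3K9 methylation 7 fell and 2 rose (median -0.34): Cbx5, which encodes HP1 alpha, was at 169 and 182 CPM in KO and 316 and 292 CPM in WT (log2 change -0.79, SE 0.040). Cbx3, HP1 gamma, was at 82.4 and 78.9 against 117 and 119 CPM (log2 change -0.55, SE 0.056). Uhrf1, which links this mark to DNA methylation at replication, was at 279 and 294 against 436 and 419 CPM (log2 change -0.58, SE 0.036). Of 6 H3K9 methyltransferases 3 fell and 2 rose (median -0.0975), Suv39h1 at 119 and 114 against 155 and 157 CPM (log2 change -0.42, SE 0.048). Setdb2 was at 45.6 and 49.6 against 38.1 and 34.6 CPM (log2 change 0.39, SE 0.083). Of 16 Polycomb genes 7 fell, 4 rose and 5 were not called (median -0.055), and of 7 tested DNA methylation genes 3 fell and 2 rose (median 0.025). Ezh2, the H3K27 methyltransferase of germinal center B cells, was at 167 and 165 CPM in KO and 249 and 245 CPM in WT (log2 change -0.57, SE 0.042), while its relative of resting cells, Ezh1, was at 44.9 and 43.8 CPM in KO and 28.6 and 30.6 CPM in WT (log2 change 0.58, SE 0.088). The pair moved in opposite directions, and both groups were apart in each gene. Dnmt1 fell (669.8 and 670.1 against 894 and 855 CPM, log2 change -0.38, SE 0.032) and Dnmt3a (45.1 and 45.9 against 23.9 and 20.5 CPM, log2 change 1.04, SE 0.094) and Tet2 (32.2 and 31.9 against 15.6 and 13.4 CPM, log2 change 1.15, SE 0.11) rose. Of 23 activating regulators 11 fell and 4 rose, and the lymphoma genes Kmt2d (log2 change -0.056, SE 0.035, adjusted p = 0.188) and Crebbp (log2 change -0.052, SE 0.058, adjusted p = 0.474) did not pass. The counts in this paragraph are to be read against all tested genes, 25.1% higher and 25.1% lower. Of genes at 100 to 1000 CPM, 29.9% were higher and 47% lower.

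Antibody genes showed more IgM and IgD and less of most switched classes. Ighm was at 5432 and 5545 CPM in KO and 1543 and 1552 CPM in WT (log2 change 1.83, SE 0.028). Ighg1 was at 2819 and 2881 CPM in KO and 3457 and 3504 CPM in WT (log2 change -0.29, SE 0.028). Per kilobase of exon, Ighm stood at 2910 in KO and 821 in WT and Ighg1 at 1100 in KO and 1343 in WT (CPM per kilobase), so the order of the levels differed: Ighm was above Ighg1 in KO and below it in WT. Ighg2b (412 and 417 against 637 and 639.5 CPM, log2 change -0.62, SE 0.034), Ighg2c (30.03 and 35.8 against 67.5 and 61.3 CPM, log2 change -0.96, SE 0.079), Ighe (9.62 and 9.16 against 13.8 and 15.1 CPM) and Igha (12.4 and 9.61 against 17.2 and 16.6 CPM) fell, and Ighg3 rose (385 and 401 against 321 and 311 CPM, log2 change 0.31, SE 0.036). Of 6 light chain and assembly genes 4 rose, Igkc at 3239 and 3231 against 2400 and 2551 CPM (log2 change 0.39, SE 0.028), and 0 fell. The switched classes are similar in sequence, and germline transcripts of a constant gene count with its spliced messages.

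Of 176 tested immunoglobulin variable segments 133 rose and 4 fell (median 1.03), and their summed level was 3091 and 3105 CPM in KO against 1614 and 1621 CPM in WT. Heavy chain segments rose in 71 of 86 tested, and the 113 listed segments summed to 1084 and 1105 CPM against 440.5 and 421 CPM. Ighv1-64 was the leading heavy chain segment in every sample, at 10.4% and 11.1% of the heavy chain sum in KO and 11% in both WT samples. The effective number of heavy chain segments (the exponential of the Shannon entropy of their shares) was 54.4 and 52.6 in KO against 56.9 and 56.3 in WT. For kappa these numbers were 55.3 and 55.3 against 54.1 and 54.8, with Igkv12-44 leading in KO and Igkv6-23 in WT. Mutated segments may lose reads in alignment, and the aligner is not given in the sources used here.

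The secretory pathway was higher in part. Of 24 folding genes 16 rose and 4 fell (median 0.27): Pdia4, a disulfide isomerase, was at 218 and 216 CPM in KO and 60.8 and 60.7 CPM in WT (log2 change 1.84, SE 0.051). Hsp90b1 was at 522 and 527 against 299 and 274 CPM (log2 change 0.88, SE 0.035). Of 10 stress response genes 3 rose and 3 fell. Atf4 (log2 change -0.054, SE 0.038, adjusted p = 0.240) and Ddit3 (log2 change 0.16, SE 0.12, adjusted p = 0.253) did not pass, and Asns, an amino acid response gene, fell (9.04 and 9.95 against 22.6 and 24.4 CPM, log2 change -1.31, SE 0.14).

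Among Ly6, annexin and S100 genes 13 of 21 rose and 3 fell. Ly6a, which encodes Sca-1 and responds to interferon, was at 160.4 and 164 CPM in KO and 53.5 and 51.6 CPM in WT (log2 change 1.62, SE 0.057). Ly6d was at 155 and 157 CPM in KO and 34.7 and 38.7 CPM in WT (log2 change 2.08, SE 0.062). The annexins split: Anxa2 was at 75.3 and 74.8 CPM in KO and 222 and 227 CPM in WT (log2 change -1.58, SE 0.049). Anxa6 was at 146 and 148 CPM in KO and 45.8 and 42.2 CPM in WT (log2 change 1.74, SE 0.060), with no overlap of the groups in either.

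Of 1377 tested long noncoding genes 254 rose, 194 fell and 929 were not called. They were thus called less often than all tested genes, of which 50.2% were called, 25.1% in each direction. Among the 17 tested of those listed by name, 7 rose, 3 fell and 7 were not called, with Neat1 at 95.1 and 92.6 against 57.1 and 64.8 CPM (log2 change 0.62, SE 0.062). Malat1 was at 177 and 178 against 135 and 129 CPM (log2 change 0.43, SE 0.045). Dleu2, the host of miR-15a and miR-16, fell (36.9 and 39.8 against 54.9 and 51.7 CPM, log2 change -0.47, SE 0.080). Junos, which starts beside Jun on the opposite strand, was at 24.2 and 23.4 CPM in KO and 4.69 and 5.35 CPM in WT (log2 change 2.24, SE 0.16), a change like that of Jun. Gm15675 was at 77.7 and 81.2 CPM in KO and 18.2 and 18.7 CPM in WT (log2 change 2.11, SE 0.085), with 29.5% of its exon length under exons of the other strand. Peg13 rose (26.4 and 23.4 against 7.89 and 7.16 CPM, log2 change 1.73, SE 0.14), and A630023P12Rik fell (6.03 and 6.90 against 16.2 and 17.9 CPM, log2 change -1.40, SE 0.16).

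**Figure D4:**
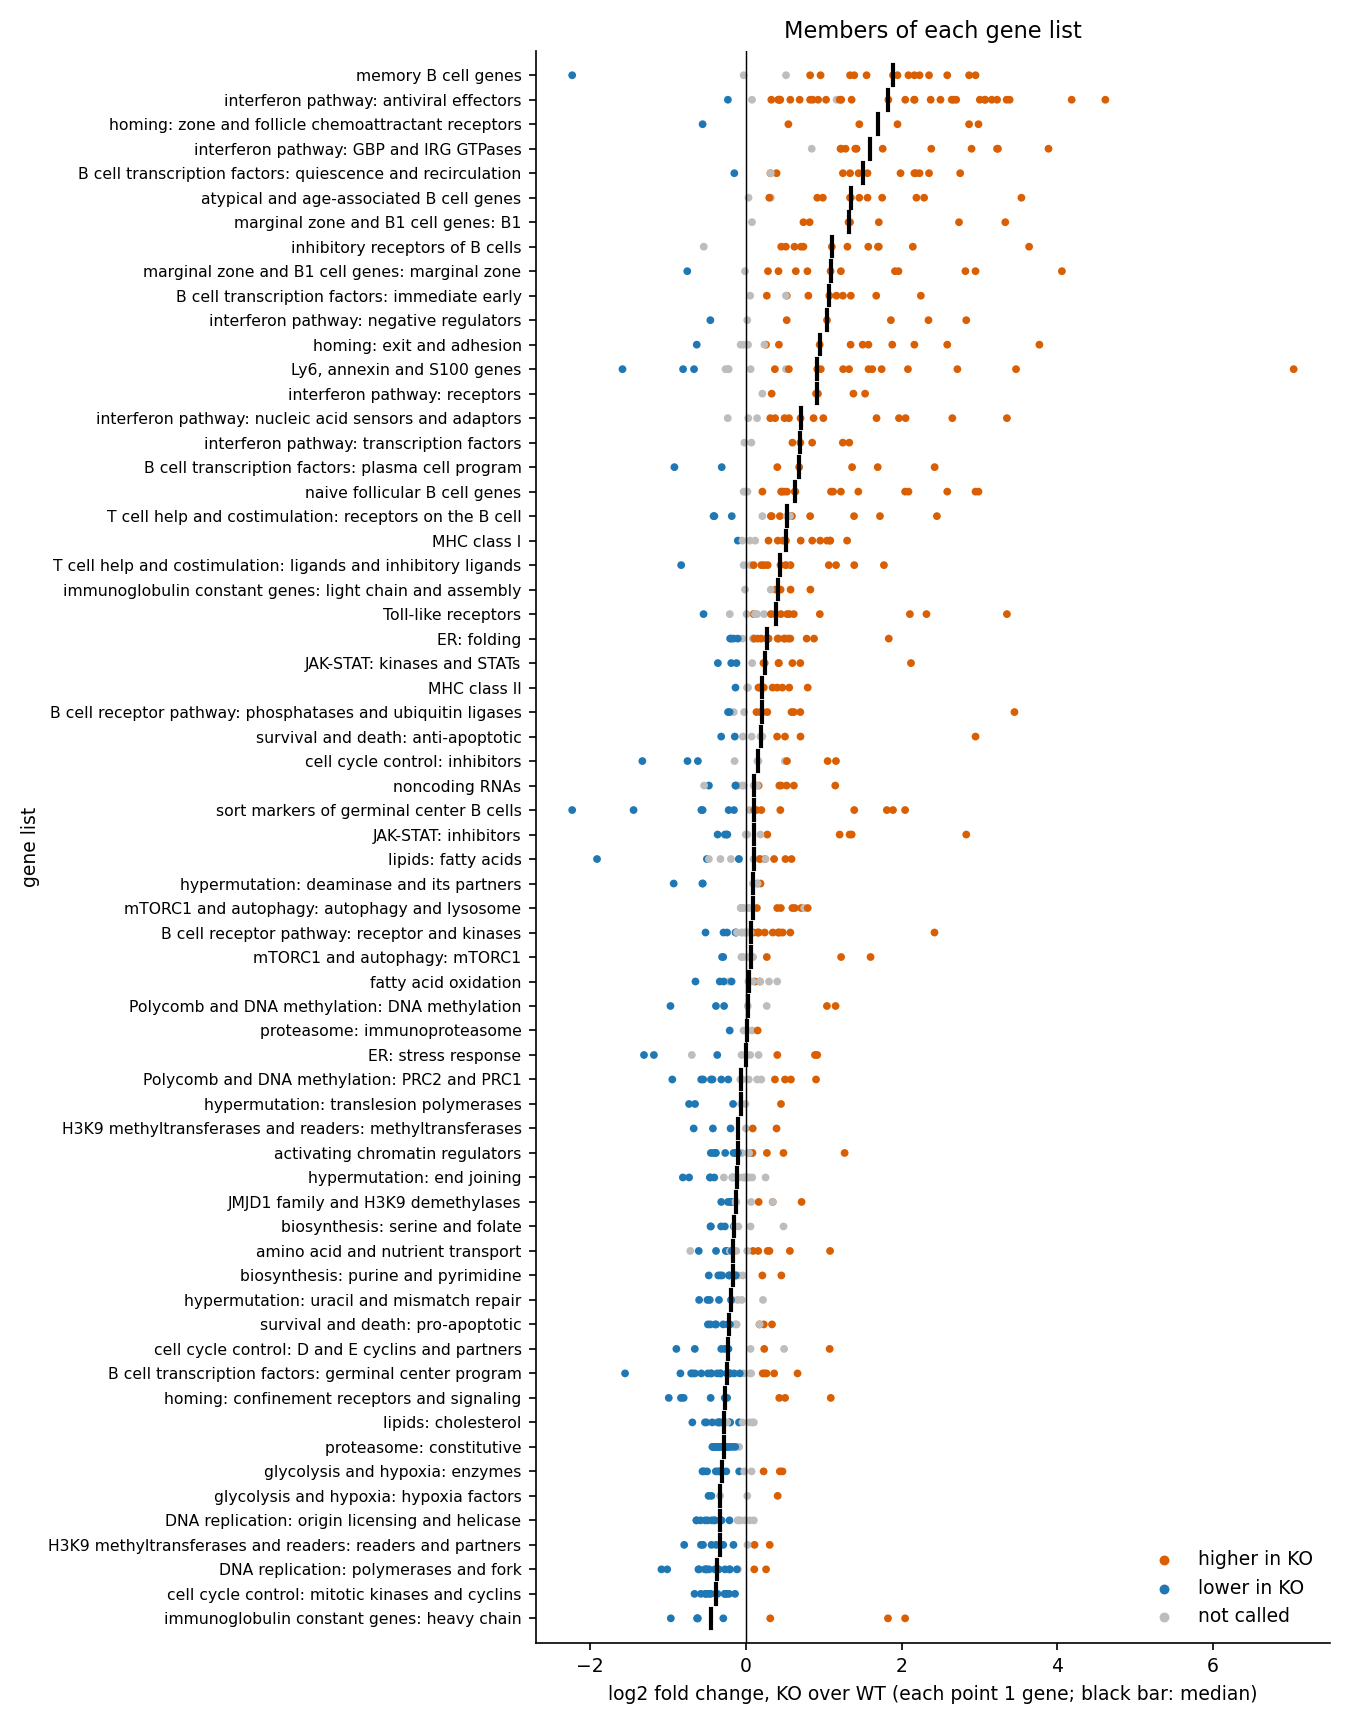
Log2 fold change, KO over WT, of each tested member of the gene lists with at least 5 tested members (points), with the median of each as a black bar. Markers of other cells, Cre drivers and sex-linked genes are not drawn. Interferon effectors and memory genes reach medians above 1.8. All constitutive proteasome and mitotic genes sit below 0, and both replication lists have medians below 0 with some members above it.

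Whether the KO effect in germinal center B cells differed from that in activated B cells was tested in 1 fit of all 8 samples. The activated cells were splenic B cells enriched with beads and then activated, from KO and WT mice of the same strain, with 2 samples each. Of 14992 genes tested, 31.2% were called as differing, 2621 with a more positive effect in germinal center B cells and 2064 with a more negative one. Effects and differences below are log2 values from that fit, except where a germinal center value was given above.

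Jmjd1c fell more in activated cells (-0.94), a difference of 0.74 (SE 0.074, adjusted p = 1.39e-14). For the exit, memory and interferon genes named here the effect was more positive in germinal center B cells by this test. Ccr7 changed by 0.060 in activated cells, with 479 and 466 CPM in KO and 451 and 455 CPM in WT, a difference of 2.92 (SE 0.11). Klf2 differed by 2.22 (SE 0.077), S1pr1 by 2.10 (SE 0.087), Cd38 by 1.84 (SE 0.092) and Bcl2 by 2.99 (SE 0.13). Mx1 changed by 0.52 in activated cells and differed by 4.10 (SE 0.29), and Oas2 differed by 3.47 (SE 0.25). Irf7 differed by less, 0.67 (SE 0.12).

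The germinal center genes were not alike in this respect. Bcl6 was lower in KO germinal center B cells, while its value in activated cells was 0.16, a difference of -0.74 (SE 0.073, adjusted p = 4.1e-15). Gcsam, which encodes a signaling adaptor of germinal center B cells, was lower in both, and more so in activated cells (99.9 and 95.5 CPM in KO and 335 and 328 CPM in WT in germinal center B cells; -3.47 in activated cells; difference 1.71). For Mybl1 (0.38, SE 0.21, adjusted p = 0.188) and S1pr2 (-0.013, SE 0.21, adjusted p = 0.981) the difference of effects did not pass. Ezh2 (-0.57), Mki67 (-0.47) and Fas (-0.70) had more negative effects in germinal center B cells, and Myc (0.62), Irf4 (1.41), Ighm (1.64), Ighd (2.04) and H2-K1 (1.08) more positive ones.

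**Figure D5:**
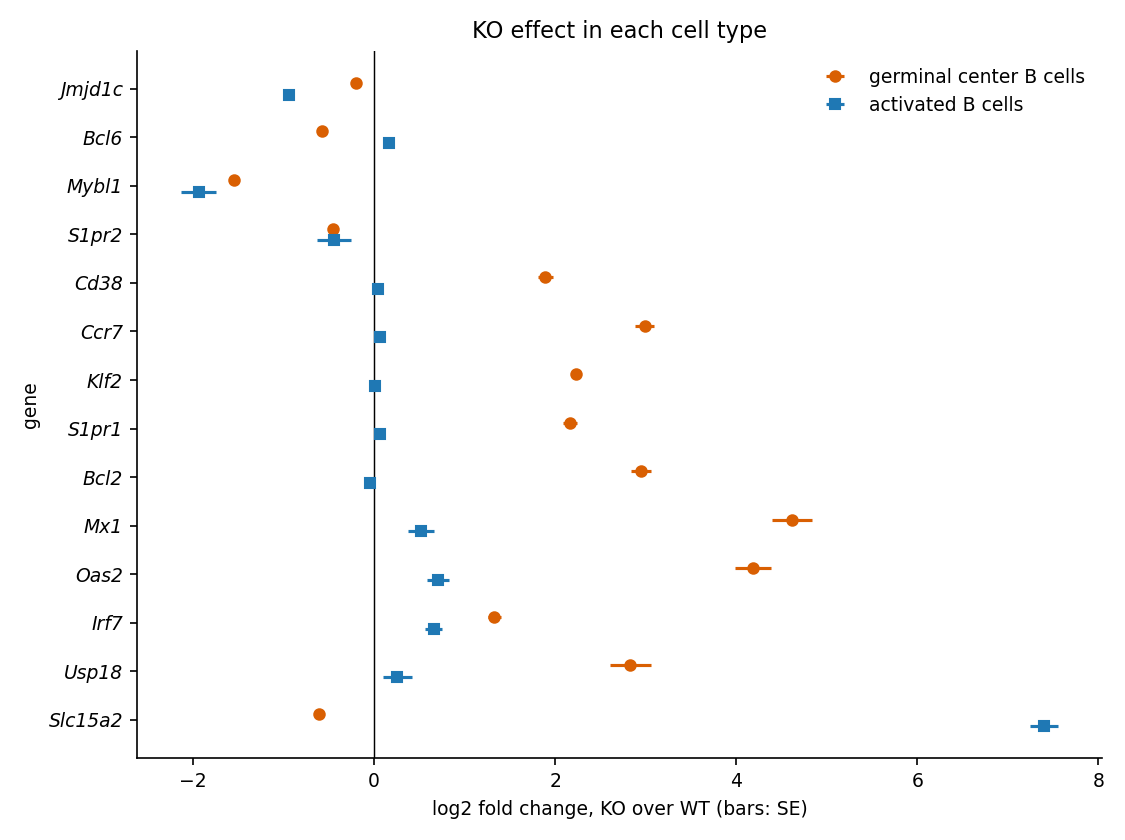
Log2 fold change, KO over WT, with its SE, in germinal center B cells (fit of 4 samples) and in activated B cells (fit of 8 samples) for 14 genes. Ccr7, Klf2, S1pr1 and Bcl2 are high in germinal center B cells and near 0 in activated cells, whereas Jmjd1c lies lower in activated cells.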

How the data were processed

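RNA was sequenced from 2 KO and 2 WT samples of sorted germinal center B cells, with 2 KO and 2 WT samples of activated B cells used in 1 comparison. The deposited files hold raw read counts per gene, made by the authors. The submitters' processing notes name the build mm10 and the tools DESeq2 and Trimmomatic, without versions. The aligner, the counter or its strand setting is not given in the sources used here. Symbols, positions and exon lengths came from GENCODE M21 (GRCm38), which holds 55141 of the 55401 genes listed. The 5 summary entries were left out of library sizes and tests: 47.2% to 48.7% of the germinal center entries had no feature and 1.12% to 1.15% were ambiguous. Totals on genes were 8777425 to 11414559, so values near 1 CPM rest on few counts and are limited by counting error.

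Groups came from the sample titles. KO was tested against WT on these 4 samples with edgeR 4.0.16 in R 4.3.3 (filterByExpr, TMM scaling, quasi-likelihood F test, Benjamini-Hochberg adjustment over all tested genes, threshold 0.05). The spread of single genes was drawn wholly to the trend over genes, so a gene noisier than others of its level may be called too easily. SEs are the absolute log2 fold change over the square root of F. The difference of KO effects between cell types was a contrast in 1 fit of the 8 samples. The script was tested on simulated counts.

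The gene lists (46 lists, 954 symbols, 952 matched, 3 of them by an older symbol) and their members were chosen with earlier results of these data known. Genes named in the text are Jmjd1c, marked members of each list, up to 4 other members of each role with the lowest p, and, among genes called whose mean count was 50 or more and whose groups did not overlap, protein coding and with a named symbol (which leaves out the immunoglobulin genes), the 20 highest and 20 lowest log2 fold changes and the 15 highest and 15 lowest CPM differences. They also include 6 noncoding genes in each direction by the same limits on calls, counts and overlap, 3 genes called in each direction within 5 Mb of Jmjd1c and 8 differences of effects in each direction, and the text names a part of these. Some genes that this rule takes are not reported here. Ms4a1, Ptprc, Foxm1, Samhd1, Emp2, Serpina3f and Cd3e were named after their values were seen. Alternatives were other scalings and filters, DESeq2 1.42.0, a replicate block, a test against a 1.5-fold change, leaving out each sample, leaving out mitochondrial and immunoglobulin genes, and a fit of all 8 samples. Intervals and floors cover counting error only. Promoter letters were searched with Python 3.11.15 in RefSeq windows (GRCm38.p6).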

Additional observations from a re-analysis of the deposited data

Results flagged for a closer look

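The KO effect differed between germinal center and activated B cells for Jmjd1c and for 15 genes at either end of the ranking by that difference, tested as a contrast in 1 fit of all 8 samples (edgeR quasi-likelihood test with Benjamini-Hochberg adjustment). Values are log2 differences, germinal center minus activated. For Jmjd1c the difference was 0.736.

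The most negative difference was that of Slc15a2, a peptide transporter gene, at -8.01. In activated cells it stood at 103 and 106 CPM in KO and 0.723 and 0.496 CPM in WT, while in germinal center B cells it was lower in KO (83.4 and 82.3 against 128 and 124 CPM). The other negative ones were Mmp9 at -5.71, Rab44 at -2.76, Celsr1 at -2.75, Pcyt1b at -2.72, Cfap74 at -2.7, Rgcc at -2.51 and Gatm at -2.42. Celsr1 was at 4.41 and 4.75 against 25.7 and 24.5 CPM and Pcyt1b at 3.94 and 3.96 against 18.4 and 16.4 CPM in germinal center B cells. Mmp9 had 0 and 0 counts in KO and 1 and 4 in WT there. Its difference also rests on its levels in activated cells, which are not given here.

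The positive ones were Gpnmb at 5.6, Iqgap2 at 5.38, Ly6c2 at 5.12, Ptafr at 4.95, Lilr4b at 4.9, Alox5ap at 4.51 and Slc4a1 at 4.38. These genes were at or near 0 in WT germinal center B cells, so the fitted values depend on the prior count. Each difference also takes in the KO effect in activated cells, where the levels of these genes are not given here. The counts and ratios that follow are from germinal center B cells alone and do not by themselves account for the differences. By counts, Gpnmb had 4 and 5 in KO and 0 and 0 in WT, which is at least 3.58-fold higher in KO against a floor of 3 counts over the group. On the same basis Alox5ap was at least 4.38-fold, Iqgap2 at least 5.57-fold and Ptafr at least 3.58-fold higher. Ly6c2 had 78 and 57 counts against 0 and 1, a ratio of 161 (95% counting interval 28.4 to 6410), Lilr4b 18 and 19 against 0 and 1, a ratio of 44.2 (7.45 to 1790), and Slc4a1 31 and 42 against 1 and 1, a ratio of 43.6 (11.6 to 367). Slc4a1 is an erythroid gene and moved with the erythroid markers given above, whose part was not tested. Gpnmb, Ptafr, Alox5ap and Lilr4b moved in the same direction as 11 of 13 tested monocyte and macrophage markers. Which cells their few counts came from was not tested.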

How the results depend on the processing

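No gene called in the comparison of KO with WT germinal center B cells was called in the opposite direction under any of the 14 alternatives run. Against 6698 genes called, counts were 5669 to 5933 with 1 sample left out (81.5% to 84.5% of the calls shared in direction), and 6469 to 6891 with other scalings, other filters, a fit of all 8 samples or without mitochondrial and immunoglobulin genes. Without scaling, 42.6% of calls were higher, against 50%. The DESeq2 Wald test called 4695 genes (69.7% of the edgeR calls shared). A test against a 1.5-fold change called 1247 genes (966 higher and 281 lower, 145 of them lower by more than 2-fold) and 214 of the list members called, against 626. The difference of KO effects was called for 2645 genes by the DESeq2 Wald test, against 4685. Medians that changed sign were those of platelet markers, which rest on Itga2b alone (-0.0242 to 0.485 with 1 sample left out, below 0 without KO replicate 1), and of named long noncoding genes (-0.0224 to 0.0871, below 0 without WT replicate 2). The cause was not tested. With the replicate number as a block 6723 genes were called. Samples that share a number did not deviate together (correlation 0.0103 over 13350 genes). With 2 samples per group and replicates that differed by little more than counting noise, this cannot tell whether the numbers pair the samples. Depth limits low genes: the median SE of a log2 change was 0.551 under 1 CPM, 0.296 at 1 to 10 CPM and 0.0441 at 100 to 1000 CPM.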

Other observations

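Emp2, which encodes a tetraspan membrane protein, had 0 and 1 counts in the KO samples and 76 and 68 counts in the WT samples of germinal center B cells. The ratio of WT to KO was 121, with a 95% counting interval from 21.3 to 4800. In activated cells Emp2 was near 0 in both genotypes, at 0.205 and 0 CPM in KO and 0.207 and 0.198 CPM in WT. Serpina3f, a serine protease inhibitor gene, ran the other way, with 44 and 56 counts in KO and 2 and 0 in WT, a ratio of 59.7 (16.1 to 500). Both genes fell under the minimum mean count for naming and were picked for their values.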
